A study of Mus musculus with 20 samples.

Results

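Tumors of mice that carry 2 copies of a MYCN transgene and lack a functional Mdk gene (Mdk knockout tumors) were compared with tumors of mice that carry 2 copies of the transgene and have Mdk intact (homozygous tumors). The samples were chosen by their titles, which gave 2 Mdk knockout tumors and 4 homozygous tumors among the 20 samples of the series. RNA of each sample was measured on 1 Affymetrix Mouse Genome 430 2.0 array, and the other 14 samples were ganglia, hemizygous tumors and sphere cultures. The labels give the genotypes as MYCN Tg homozygote + Mdk KO and as MYCN Tg homozygote, both on a mixed 129+Ter/SvJcl background, with colonies kept by crosses to wild-type mice of that strain. The transgene is thus present in both groups. The labels give neither the promoter that drives it, nor the age of the mice, nor whether 1 animal gave more than 1 sample. Each p-value therefore rests on the scatter of the samples, part of which may be technical. The comparison asks which transcripts of established MYCN tumors differ when midkine is missing.

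Midkine, the product of Mdk, is a secreted growth factor that binds heparin and the sulfated sugar chains of proteoglycans. It is abundant in embryonic neural tissue, is low in most adult tissues, and is high in many tumors, neuroblastoma among them. Pleiotrophin (Ptn) is its closest relative, and the receptors reported for the family include the phosphatase Ptprz1, the kinase Alk, the lipoprotein receptor Lrp1, integrins, syndecans and Notch2. Neuroblastoma arises from the sympathoadrenal lineage of the neural crest, and mice with a MYCN transgene expressed in that lineage develop such tumors in sympathetic ganglia.

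The tumors of both groups carried transcripts of that lineage. Of 22 sympathetic noradrenergic genes, 6 lay below all homozygous tumors in both knockout tumors and 0 above, beside 8.4% and 8.1% of all genes. Markers of the lineage whose groups overlapped are given first, and Slc18a2, a lower member, is given further below. Hand2, a transcription factor of sympathetic precursors, read 1682 and 1855 in the knockout tumors and 1719, 1855, 1406 and 1435 in the homozygous tumors. Ddc, which makes dopamine, read 3754 and 3852 in the knockout tumors and between 3686 and 3851 in the homozygous tumors. Th, the rate-limiting enzyme of catecholamine synthesis, read 303 and 298 in the knockout tumors, against 260, 273, 384 and 305 in the homozygous tumors.

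Several arrays stood apart within their group. Knockout tumor 2 and homozygous tumor 2 carried skeletal muscle transcripts: Acta1, the skeletal muscle actin, read 27.8 and 1052 in the knockout tumors, against 22.7, 437, 12.5 and 23.2 in the homozygous tumors. The summed intensity of the 31 skeletal muscle genes was 437 and 7254 in the knockout tumors, against 488, 2870, 417 and 539 in the homozygous tumors. Knockout tumor 2 also had the highest sum of 13 fat cell genes, 8418 against 2686 in knockout tumor 1 and between 2610 and 3861 in the homozygous tumors. Differences were therefore also taken between the arrays with muscle transcripts, as knockout tumor 2 minus homozygous tumor 2. Between the arrays without them, they were taken as knockout tumor 1 minus the mean of homozygous tumors 1, 3 and 4. Both are called matched differences below. The arrays with muscle transcripts are matched only in carrying them, since their sums of 7254 and 2870 differ. Xist, the transcript of the inactive X chromosome of females, read 2215 and 17 in the knockout tumors and 18, 2334, 2366 and 11.9 in the homozygous tumors, so each group held both sexes. The arrays with muscle transcripts differed in sex, with Xist at 17 in knockout tumor 2 and at 2334 in homozygous tumor 2. The signal ratio of 3′ over 5′ probes for beta-actin, which increases as RNA degrades, was 3.28 and 2.56 in the knockout tumors and between 2.44 and 2.81 in the homozygous tumors. For GAPDH it was 4.49 and 3.54 in the knockout tumors and between 2.77 and 3.61 in the homozygous tumors. Knockout tumor 1, the only knockout array in the differences without muscle transcripts, thus had the highest ratio for both. Across the genes tested, homozygous tumors 1 and 2 correlated at r = 0.987 and homozygous tumors 3 and 4 at r = 0.991, while the knockout tumors correlated with each other at r = 0.980. Homozygous tumors 3 and 4 differed from 1 and 2 at an unadjusted p under 0.05 for 603 genes, and for 0 genes after adjustment (limma). The labels name no batch.

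Mdk, the targeted gene, was lower in both knockout tumors than in any homozygous tumor. Its probe set read 42.6 and 35.5 in the knockout tumors and 297, 268, 269 and 271 in the homozygous tumors. The group means were 39 ± 5 (SD, n = 2) in the knockout tumors and 277 ± 13.9 (SD, n = 4) in the homozygous tumors, a 7.09-fold difference. On the log2(intensity + 16) scale used for all tests, Mdk fell by 2.41 (SE 0.29, 95% confidence interval -3.02 to -1.81, limma adjusted p = 0.0017). The difference was -2.47 between knockout tumor 2 and homozygous tumor 2 and -2.33 between knockout tumor 1 and homozygous tumors 1, 3 and 4, so it was about as large with muscle transcripts as without. An exact permutation test over the 6 arrays gave a two-sided p of 0.133, the smallest that 15 splits can give. Mdk no longer passed without knockout tumor 1 (limma adjusted p = 0.07) or without knockout tumor 2 (limma adjusted p = 0.18), with differences of -2.51 and -2.32. Whether the probe set covers the part of the gene that was deleted is not known here, so the remaining signal in the knockout tumors cannot be divided into background and transcript.

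The residual Mdk signal can be placed among the other samples. In samples with an intact gene, the Mdk probe set of hemizygous tumors averaged 340 ± 108 (SD, n = 4), that of hemizygous tumorspheres 400 ± 90.5 (SD, n = 2), and the mean was 197 ± 15 (SD, n = 2) in homozygous ganglia. It was lower in wild-type tissue, at 70.1 ± 25.8 (SD, n = 4) in ganglia and at 33 and 53.6 in the 2 neurosphere cultures. The knockout tumors at 35.5 and 42.6 lay just below the lowest wild-type ganglion, which read 43, and within the span of the neurospheres.

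**Figure D1:**
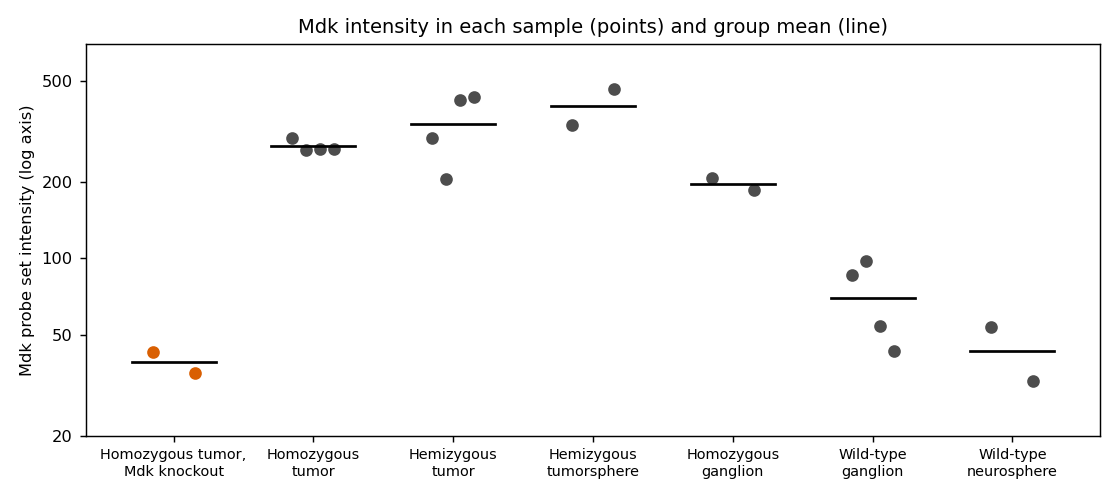
Intensity of the Mdk probe set (log axis) in each of the 20 samples by group, with points for samples and lines for group means. The 2 knockout tumors read 42.6 and 35.5, and the 4 homozygous tumors lie between 268 and 297.

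Beyond Mdk, no gene passed the test. Of 15139 genes tested, 1 passed the adjusted threshold of 0.05 (0.00661%), which was Mdk, and 0 genes were called higher. The second smallest adjusted p was 0.53. At an unadjusted p under 0.05 there were 202 genes (1.33%), 91 of them higher in knockout tumors (0.601%) and 111 lower (0.733%). With a model of the 6 arrays alone 3 genes were called (0.0198%), Mdk, Snhg14 and Ccdc180, and 979 had an unadjusted p under 0.05 (6.47%). The median log2 difference of all genes was 0.00, with 50.8% of genes above 0 and 5th and 95th percentiles of -0.38 and 0.41. Both knockout tumors lay above all 4 homozygous tumors for 1226 genes (8.1%) and below all of them for 1271 (8.4%), and these shares are the background for the counts that follow. Differences of more than 1 log2 unit were seen for 22 genes upward and 15 downward, of which 5 and 13 had groups that did not overlap.

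What the arrays could show is set by their number and by the scale of the tests. The 95% interval of a difference reached, in the median gene, 0.55 to either side on the log2 scale, or 1.47-fold. For 12286 genes (81.2%) the whole interval lay within 1 log2 unit of 0. At this precision a larger difference on the scale of the tests lies outside it. For the other genes a difference of that size lies within the interval. The scale understates the change of dim genes, so the 81.2% does not exclude larger folds of their intensities. Dim Tnfrsf10b was 3.59-fold higher on the means in knockout tumors, with an interval of 0.05 to 0.95. Dim Cspg5 was 2.35-fold lower, with an interval of -0.94 to 0.15.

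Genes other than Mdk are described by a rule on direction and size, and none of them passed. From the genes whose groups did not overlap and whose difference had the same sign with and without muscle transcripts, the 12 highest and 12 lowest by the smaller of the matched differences were taken. The condition on sign removed no gene, because groups that do not overlap always meet it. The rule used these values, so their size is a description. The plot of matched differences shows these genes near the diagonal, which ranking by the smaller difference favors, and most muscle genes above the horizontal axis.

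**Figure D2:**
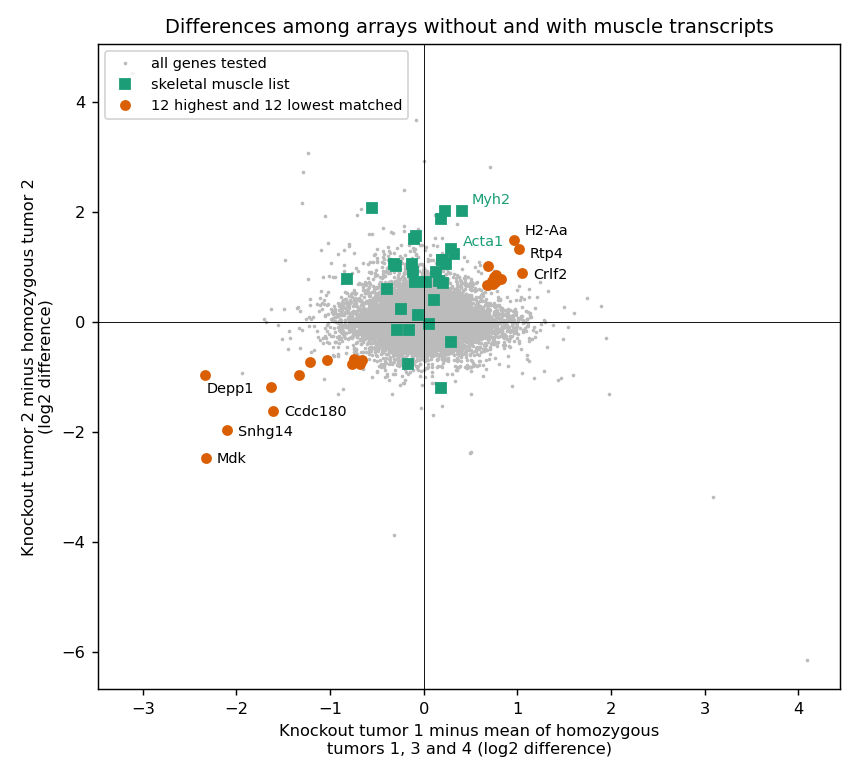
Each point is a gene: the log2 difference without muscle transcripts (knockout tumor 1 minus the mean of homozygous tumors 1, 3 and 4) on the x axis and with them (knockout tumor 2 minus homozygous tumor 2) on the y axis. Mdk lies at -2.33 and -2.47, the 24 genes named by the rule are in orange, and most genes of the skeletal muscle list are in green above 0 on the y axis.

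Among the 12 lowest, Mdk and 2 other genes had large gaps between the groups. Snhg14, a long noncoding host transcript of small nucleolar RNAs in an imprinted region, read 279 and 300 in the knockout tumors and 1148, 1223, 1495 and 1129 in the homozygous tumors. The knockout tumors lay 4.31-fold below on the means, at a log2 difference of -2.04 (SE 1.03, unadjusted p = 0.063 with limma on all arrays, adjusted p = 0.0039 on the 6 arrays). Snhg14 also varied without an Mdk knockout: it ranged from 126 to 1562 in wild-type ganglia and from 39.4 to 780 in hemizygous tumors. A second, dim probe set of Snhg14 read 1.57 and 0.354 in the knockout tumors and 12, 11.9, 8.91 and 7.93 in the homozygous tumors (-0.62). Another, which read between 663 and 864, was at 0.20. Ccdc180, a coiled-coil protein gene, read 12.4 and 10.4 in the knockout tumors and 59.9, 65.1, 83.5 and 70.8 in the homozygous tumors. Its difference was -1.64 (SE 0.32, limma adjusted p = 0.53, and 0.012 on the 6 arrays), and the other probe sets of Ccdc180 were at -0.04 and 0.08. A hemizygous tumor with intact Mdk also read 11.5 for Ccdc180. For Ccdc180 only 1 probe set showed the gap. In Snhg14 the dim probe set also had groups that did not overlap, with a change that the log2 scale understates, while the groups of the one at 0.20 overlapped.

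The other low genes had smaller or more scattered gaps. Depp1, which is induced by FOXO factors, read 63 and 109 in the knockout tumors and between 211 and 270 in the homozygous tumors (log2 difference -1.35), with another probe set at -0.21. Cirbp, the cold-inducible RNA-binding protein, read 39.9 and 33.1 in the knockout tumors and 75.1, 65.6, 166 and 114 in the homozygous tumors (-1.14, unadjusted p = 0.0032). Hoxa9, a homeobox gene of positional identity, read 8.16 and 38 in the knockout tumors, against 73.3, 89.3, 321 and 44.9 in the homozygous tumors (-1.71). The homozygous tumors thus spread more widely in Hoxa9 and Cirbp than in Mdk, with the highest value in tumor 3 for both. The remaining members were Cldn34c1 (-1.18), Igfbpl1 (-0.85, with a second probe set at -0.02), the ceramide synthase Cers6 (-0.83), the protease inhibitor Pi15 (-0.67), the potassium channel subunit Kcnab1 (-0.66) and the glycine receptor subunit Glra2 (-0.64). Nav2, a neuron navigator, was among the 5 genes with the smallest p. It read 9.48 and 18.5 in the knockout tumors and 38.7, 32.7, 67.9 and 57.9 in the homozygous tumors (-1.10, SE 0.28, unadjusted p = 0.00092), while 7 other probe sets of Nav2 lay between -0.48 and 0.23.

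The 12 highest genes included H2-Aa of the antigen presentation and interferon list, and Rtp4, Ifi47 and Iigp1, which are outside that list and are known to be induced by interferon. Rtp4, an interferon-induced protein that helps receptors reach the cell surface, read 63.6 and 100 in the knockout tumors and 11.4, 30.4, 28.7 and 33.4 in the homozygous tumors (log2 difference 1.23, SE 0.35, unadjusted p = 0.0023), with a dim second probe set at -0.12. H2-Aa, the alpha chain of a class II molecule, read 475 and 515 in the knockout tumors and 243, 174, 198 and 273 in the homozygous tumors (1.12, SE 0.32, unadjusted p = 0.0027). Its other probe sets were at 1.12, 0.45 and 0.03. The interferon-induced GTPase genes Ifi47 and Iigp1 were at 0.88 and 0.78, and a second probe set of Iigp1 was at 0.26. Ifi47 read 56.7 and 83 in the knockout tumors and between 24 and 37.8 in the homozygous tumors. Such levels were not particular to the knockout tumors. Hemizygous tumors averaged 84.3 in Rtp4, 74.1 in Ifi47 and 61.1 in Iigp1, beside knockout means of 81.8, 69.9 and 39.

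The other high genes have varied roles. Crlf2, the receptor chain for thymic stromal lymphopoietin, read 101 and 81.4 in the knockout tumors and between 36 and 43.6 in the homozygous tumors (0.94, unadjusted p = 0.0042). Vgf and Cort, precursors of neuropeptides, read 40.2 and 32.3 (Vgf) and 26.2 and 20.4 (Cort) in the knockout tumors, against at most 21.2 and 11.4 in the homozygous tumors (log2 differences 0.76 and 0.71). Alas2, the erythroid enzyme of heme synthesis, was at 0.94, the G protein subunit Gng11 at 0.83, the carbonic anhydrase Car14 at 0.72, Jakmip3 at 0.70 and the myelin regulatory factor Myrf at 0.66. Myrf read 25.3 and 23.3 in the knockout tumors and between 8.14 and 10.9 in the homozygous tumors, a narrow spread at low intensity.

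**Figure D3:**
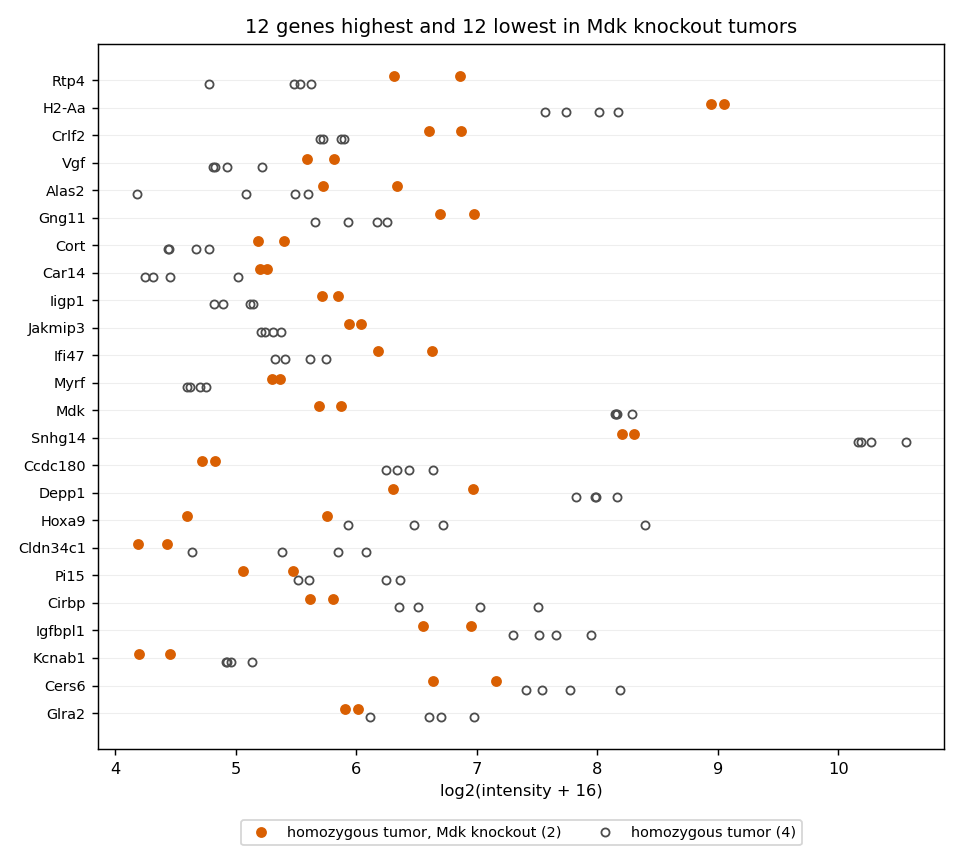
Values of the 12 highest and 12 lowest genes as log2(intensity + 16) on the x axis, with filled points for the 2 knockout tumors and open points for the 4 homozygous tumors. The widest gaps are those of Mdk and Snhg14, and homozygous tumors 3 and 1 lie far out in Hoxa9 (321) and Rtp4 (11.4).

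The midkine family and its receptors came next, and 1 of 21 genes, Mdk, was called. The median log2 difference of the 21 was -0.12, against 0.00 over all genes. Of the 21, 0 lay above all homozygous tumors in both knockout tumors (background 8.1%) and 5 lay below all of them, Mdk, Ptn, Lrp1, Itgb1 and Vcan (background 8.4%). The median was -0.31 without the arrays with muscle transcripts and -0.00 between the arrays with them.

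Ptn, the ligand related to Mdk, read 127 and 132 in the knockout tumors and 164, 194, 196 and 163 in the homozygous tumors. Its log2 difference was -0.43 (SE 0.46, 95% confidence interval -1.39 to 0.54), and other probe sets of Ptn were at 0.32 and -0.35. Both knockout tumors lay below the homozygous tumors in the brightest probe set. In the one at 0.32 both lay above them, at 40.6 and 44.2 against 40, 25.3, 29.1 and 30. The direction of Ptn thus depended on the probe set, and the interval of the brightest one also includes higher levels.

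The signalling receptors overlapped between the groups. Alk, a receptor tyrosine kinase that is mutated in part of human neuroblastomas, read 227 and 222 in the knockout tumors and 304, 289, 225 and 203 in the homozygous tumors (log2 difference -0.16, 95% confidence interval -0.75 to 0.44). Its relative Ltk was at most 4.07 on the 6 arrays. Ptprz1, a receptor tyrosine phosphatase with chondroitin sulfate chains, read 61.2 and 95 in the knockout tumors and 104, 71.5, 71 and 85.4 in the homozygous tumors (-0.08, 95% confidence interval -0.78 to 0.62). Notch2 read 81.9 and 85.7 in the knockout tumors and 63.4, 86.2, 104 and 123 in the homozygous tumors (-0.11, 95% confidence interval -1.38 to 1.15). Each of these intervals includes 0, and that of Notch2 is wide enough to hold a 2-fold difference either way.

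Of 6 lipoprotein receptors and integrins, 4 had differences below 0, but between the arrays with muscle transcripts Lrp6 and Itga4 were at 0.06 and 0.11 and Itgb1 at -0.00. Lrp1 read 70.1 and 86.3 in the knockout tumors and between 90.1 and 99 in the homozygous tumors (log2 difference -0.25, SE 0.40), and Lrp6, a Wnt co-receptor, was at -0.54, with a second probe set at 0.02. Itgb1, the common beta chain of many integrins, read 94.9 and 150 in the knockout tumors and 204, 151, 460 and 417 in the homozygous tumors (-1.12, SE 0.52, unadjusted p = 0.045), with a second bright probe set at -0.80. Here homozygous tumors 3 and 4 were far above 1 and 2, and knockout tumor 2 at 150 was next to homozygous tumor 2 at 151. Itga4, an integrin alpha chain, was at -0.34, while Itga6 read 149 and 237 in the knockout tumors and between 148 and 182 in the homozygous tumors. Lrp8 read 339 and 355 in the knockout tumors and between 307 and 365 in the homozygous tumors.

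Proteoglycans that bind midkine went no single way. Sdc1, a syndecan, read 331 and 166 in the knockout tumors and 177, 190, 107 and 179 in the homozygous tumors (log2 difference 0.52, with a second bright probe set at -0.06), so 1 knockout tumor was above and 1 within the homozygous range. Sdc4 read 108 and 242 in the knockout tumors and between 129 and 223 in the homozygous tumors, the opposite order of the knockout tumors. A dim second probe set of Sdc4 read 4.5 and 13.3 in the knockout tumors and between 16.6 and 32.3 in the homozygous tumors (-0.75). Vcan, the matrix proteoglycan versican, and Cspg5, a neural one, were at -0.25 and -0.39, and the co-receptor Nrp1 was at 0.39. Of 28 enzymes that build or modify heparan and chondroitin sulfate, 0 were called, and the median was -0.01. Of these, 2 were higher and 1 lower without overlap, beside 8.1% and 8.4% of all genes. Glce, an epimerase of heparan sulfate, was at 0.33 and Ndst2, a sulfotransferase, at -0.31.

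Genes of antigen presentation and the interferon response lay toward higher values in knockout tumors, although 0 of 22 were called. Of the 22, 9 lay above all homozygous tumors in both knockout tumors and 0 below, beside 8.1% and 8.4% of all genes. In all, 19 had a positive log2 difference, the exceptions being Irf1, Mx1 and Tapbp. The median was 0.38, against 0.00 over all genes, or 0.60 with a pseudocount of 1 and 0.15 with one of 64 in place of 16. It was 0.54 between the arrays with muscle transcripts and 0.15 between those without. Among the arrays without muscle transcripts, knockout tumor 1 was above all of homozygous tumors 1, 3 and 4 for 12 of the 22 genes and below for 3, beside 29.5% and 31.2% of all genes.

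Class II, class I and proteasome members shared the direction. H2-Eb1, a class II beta chain, read 137 and 157 in the knockout tumors and 80.4, 73, 103 and 118 in the homozygous tumors (log2 difference 0.59). Cd74, the invariant chain that escorts class II molecules, read 86.9 and 104 in the knockout tumors and between 49.4 and 76.3 in the homozygous tumors (0.54). H2-K1, a class I heavy chain, read 242 and 371 in the knockout tumors and 214, 169, 206 and 239 in the homozygous tumors (0.51). The immunoproteasome subunits Psmb8, Psmb9 and Psmb10 were at 0.38, 0.50 and 0.48, and the peptide transporter Tap1 at 0.34. H2-D1, another class I heavy chain, read 455 and 545 in the knockout tumors and between 432 and 495 in the homozygous tumors, where the groups overlapped. Against other tissue the knockout values of H2-Aa were not high: hemizygous tumors averaged 504 ± 178 (SD, n = 4) and wild-type ganglia 932 ± 338 (SD, n = 4).

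Of the interferon-induced antiviral genes of the list, Ifit3, Ifit1 and Oas1a were dim with positive differences, while Mx1 read 8 and 6.78 in the knockout tumors and between 6.67 and 8.59 in the homozygous tumors. Ifit3 read 24.7 and 46.1 in the knockout tumors and 10.4, 23.8, 15.7 and 19.4 in the homozygous tumors (log2 difference 0.61, unadjusted p = 0.045). Oas1a, which makes an RNase activator on sensing double-stranded RNA, read 24.7 and 41.9 in the knockout tumors and 17.2, 16.1, 23 and 22 in the homozygous tumors (0.45). Ifit1 overlapped, with 13.8 and 21 in the knockout tumors and 2.28, 14.2, 9.81 and 9.46 in the homozygous tumors (0.44). Ifit3 and Oas1a did not overlap between the groups and hold in their promoters the letters GAAA, any 2 bases and GAAA again, the core of the element bound by interferon regulatory factors, and so are shown. The sequences are the 250 bases before the RefSeq gene start in build GRCm38.p6, chr19:34583279-34583528 on the plus strand for Ifit3 and chr5:120907526-120907775 on the minus strand for Oas1a, written 5′ to 3′ along the gene. Capitals mark each match on either strand, which in Oas1a are 2 matches that overlap.
Ifit3: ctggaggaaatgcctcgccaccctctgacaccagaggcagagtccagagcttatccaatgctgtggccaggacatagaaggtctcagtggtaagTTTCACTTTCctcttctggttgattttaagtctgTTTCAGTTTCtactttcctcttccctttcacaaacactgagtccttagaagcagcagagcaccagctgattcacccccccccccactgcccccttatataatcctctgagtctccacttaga
Oas1a: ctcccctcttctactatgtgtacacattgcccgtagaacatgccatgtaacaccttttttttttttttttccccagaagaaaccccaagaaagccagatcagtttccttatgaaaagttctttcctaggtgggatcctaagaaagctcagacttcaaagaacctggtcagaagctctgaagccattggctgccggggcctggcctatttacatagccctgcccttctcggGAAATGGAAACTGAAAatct
In Ifit3 the matches end 146 and 112 bases before the start, and in Oas1a 10 and 4 bases. Of 17 members of the list with a promoter entry, 6 held a match (B2m, Ifit1, Ifit3, Isg15, Oas1a and Gbp2), beside 936 of 27025 genes (3.46%). A match is a string of letters and was not tested as a binding site.

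**Figure D4:**
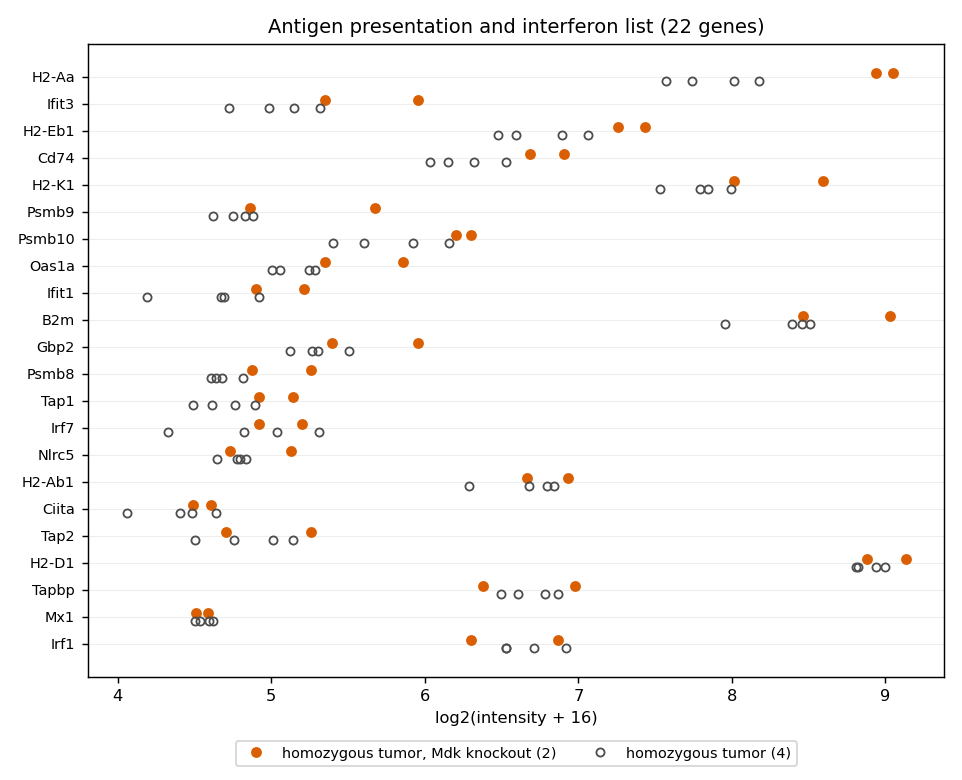
Values of the 22 antigen presentation and interferon genes as log2(intensity + 16) on the x axis, with filled points for the 2 knockout tumors and open points for the 4 homozygous tumors. From H2-Aa at the top to Irf1 at the bottom the log2 difference runs from 1.12 to -0.09, and 9 genes have both knockout tumors above all homozygous tumors.

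Markers of immune cells were measured beside these genes, and their part in the interferon values was not tested. In bulk tissue, fewer cells of a type and less RNA per cell cannot be told apart. The 25 macrophage and myeloid genes measured had a summed intensity of 4261 and 5321 in the knockout tumors and 3951, 4599, 3180 and 3347 in the homozygous tumors. Of the 23 tested, 0 were called, and 7 were higher and 1 lower without overlap, beside 8.1% and 8.4% of all genes. Their median was 0.25, or 0.16 without the arrays with muscle transcripts. C1qb, a complement chain made by macrophages, read 273 and 277 in the knockout tumors and 194, 263, 105 and 115 in the homozygous tumors (log2 difference 0.74). Other probe sets of C1qb, whose groups overlapped, were at 0.41 and 0.20. Ctss, a lysosomal protease that processes antigen, was at 0.51. Between the arrays with muscle transcripts C1qb was at 0.07 and Ctss at 0.12. The defining markers Csf1r and Cd68 overlapped: Csf1r read 523 and 689 in the knockout tumors and between 428 and 650 in the homozygous tumors, and Cd68 read 103 and 152 in the knockout tumors and between 99.6 and 158 in the homozygous tumors. The 18 lymphocyte genes measured summed to 210 and 302 in the knockout tumors and to between 162 and 258 in the homozygous tumors. Of the 11 that were tested, 1 was higher without overlap. The T cell marker Cd3e was below the filter, with at most 7.08 on the 6 arrays. Homozygous tumors 3 and 4 had the lowest macrophage sums.

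Signalling and growth lists showed small differences. In the list of genes that respond to ERK and AKT signalling, which growth factor receptors activate, 0 of 30 were called, and the median was 0.10. Of the 30, 6 were higher and 1 lower without overlap, beside 8.1% and 8.4% of all genes. Phlda1, an early response gene, read 75.8 and 86.9 in the knockout tumors and 58.2, 56.6, 46.4 and 49.7 in the homozygous tumors (log2 difference 0.50), and the signalling inhibitor Spred2 and the transcription factor Egr2 were at 0.35 and 0.36. In the Notch pathway 0 of 27 were called, 2 were higher and 1 lower without overlap, and the median was 0.01. Dll3, a Notch ligand that acts as an inhibitor, read 66.3 and 25.2 in the knockout tumors and 14.7, 13.9, 22.8 and 29.1 in the homozygous tumors (0.71), where knockout tumor 2 lay within the homozygous range. Dlk1, a noncanonical ligand, read 1327 and 861 in the knockout tumors and 1339, 1471, 1745 and 1709 in the homozygous tumors (-0.54, with a second bright probe set at -0.08). Hes1, the classical Notch target, read 21.4 and 30.6 in the knockout tumors and between 18.9 and 20.8 in the homozygous tumors (0.22), a narrow gap at low intensity.

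Proliferation and MYC target lists had small medians, which were higher without the arrays with muscle transcripts than between them. The brighter mouse Mycn probe set read 120 and 166 in the knockout tumors and 153, 134, 170 and 120 in the homozygous tumors, and a second one read 64.8 and 55.4 in the knockout tumors and 37.2, 70.7, 26.7 and 43.4 in the homozygous tumors. Whether either reads the transgene is not known here. Of 39 cell cycle genes 0 were called, and 3 were higher and 5 lower without overlap, beside 8.1% and 8.4% of all genes. Their median was 0.03, or 0.15 without the arrays with muscle transcripts and -0.05 between them. Kif11 and Aurka, a spindle motor and a mitotic kinase, were at -0.61 and -0.55, but both at -0.08 between the arrays with muscle transcripts, and other probe sets of Kif11 were at -0.08 and -0.09. Mcm4, a subunit of the replicative helicase, was at 0.35, with a second bright probe set at 0.10. Kif11 read 237 and 239 in the knockout tumors and 338, 253, 565 and 390 in the homozygous tumors. Of 41 ribosome biogenesis and MYC target genes 0 were called, 2 were higher and 0 lower without overlap, and the median was 0.09, or 0.22 without the arrays with muscle transcripts and -0.01 between them. Knockout tumor 1 was above homozygous tumors 1, 3 and 4 for 28 of these 41 genes and below for 4, and for 23 of the 39 cell cycle genes and below for 7, beside 29.5% and 31.2% of all genes. Nolc1, a nucleolar phosphoprotein, read 514 and 283 in the knockout tumors and 303, 271, 167 and 240 in the homozygous tumors (0.64, with a second bright probe set at -0.06). Ebna1bp2, a nucleolar assembly factor, read 675 and 444 in the knockout tumors and 465, 380, 282 and 321 in the homozygous tumors (0.60, with a dim second probe set at 0.05). Of 32 genes of the p53 response, CDK inhibitors and apoptosis, 0 were called, 2 were higher and 4 lower without overlap, and the median was 0.01. The death receptor Tnfrsf10b was at 0.50, with at most 12.8 on any of the 6 arrays, and the stress response gene Gadd45a was at -0.68. Of 26 hypoxia and glycolysis genes 0 were called, 4 were higher and 2 lower without overlap, and the median was 0.02.

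No lineage or differentiation gene was called. Of the 22 sympathetic noradrenergic genes 0 were called, and the 6 lower without overlap stand beside 8.4% of all genes. The median was -0.04, or -0.21 between the arrays with muscle transcripts. Slc18a2, which loads monoamines into vesicles, read 390 and 441 in the knockout tumors and 632, 568, 1162 and 613 in the homozygous tumors (log2 difference -0.76, SE 0.50), while the transcription factor Phox2a was at 0.58. Of 27 neuron differentiation genes 0 were called, and 1 was higher and 3 lower without overlap, beside 8.1% and 8.4% of all genes. Their median was -0.08, or -0.29 without the arrays with muscle transcripts. Ntng1, an axon guidance protein, read 95.8 and 102 in the knockout tumors and 105, 158, 212 and 209 in the homozygous tumors (-0.66), and the neurofilament Nefh was at 0.43, or -0.02 between the arrays with muscle transcripts. The microtubule protein Mapt read 105 and 241 in the knockout tumors and between 86.4 and 106 in the homozygous tumors (0.71), and its other probe sets were at 0.37, -0.22 and -0.47. Of 27 neural crest and progenitor genes 1 was higher without overlap, Nes, an intermediate filament of progenitors, with 35.7 and 54.8 in the knockout tumors and between 23.3 and 32.5 in the homozygous tumors (0.44), and the median was 0.02. Of 16 Schwann and satellite glia genes 1 was higher and 1 lower without overlap, and the median was -0.03. Gfra3, the artemin receptor, read 137 and 290 in the knockout tumors and 585, 278, 492 and 394 in the homozygous tumors (-1.02).

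Among the lists of stromal and other cells, that of skeletal muscle had the highest median apart from the erythroid list. The 31 skeletal muscle genes had a median of 0.67, with 27 above 0 and 10 above 1, yet 0 were higher without overlap and 1, Mylk2, was lower. The median was 0.90 between the arrays with muscle transcripts, where knockout tumor 2 held more than homozygous tumor 2, and 0.02 between the arrays without them. Of 28 genes more than 1 log2 unit higher on both muscle arrays than on the other arrays of their group on average, 15 were in the muscle list and all 28 overlapped between the groups. Choosing genes this way sets the arrays of each group apart and so favors overlap. Ucp1, which makes heat in brown fat, read 225 and 1192 in the knockout tumors and 167, 79.1, 276 and 294 in the homozygous tumors, and the 13 fat cell genes had a median of 0.30 with 0 higher without overlap and of -0.38 without the arrays with muscle transcripts. Of 25 endothelial and pericyte genes 0 were called, and 15 had a positive difference. Of the 25, 5 were higher and 0 lower without overlap, beside 8.1% and 8.4% of all genes. The median was 0.01, or -0.05 without the arrays with muscle transcripts. Their summed intensity was 1208 and 1192 in the knockout tumors and 1236, 1159, 1148 and 1273 in the homozygous tumors. The 3 members with the smallest p all lay upward: Eng and Cdh5, both on endothelial surfaces, at 0.46 and 0.45, and the transcription factor Erg at 0.43. Cdh5 read 30.6 and 29.1 in the knockout tumors and 25, 24.1, 11 and 12.4 in the homozygous tumors. Of 26 fibroblast and matrix genes 3 were higher and 0 lower without overlap, and the median was 0.08, 0.25 between the arrays with muscle transcripts and -0.10 without them. Knockout tumor 1 was below homozygous tumors 1, 3 and 4 for 11 of the 26 and above for 4. The receptor Pdgfrb and the collagen Col6a2 were at 0.55 and 0.52, and second probe sets of them at 0.01 (Pdgfrb) and -0.04 (Col6a2). The 5 erythroid genes summed to 70 and 118 in the knockout tumors and to 52, 55, 33 and 10 in the homozygous tumors, with Slc4a1, the red cell anion exchanger, at 0.75. The 15 genes of adrenal cortex, liver and kidney that were measured summed to at most 257. Ttr, the thyroxine carrier transthyretin, read 3.58 and 109 in the knockout tumors and at most 12.1 in the homozygous tumors.

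**Figure D5:**
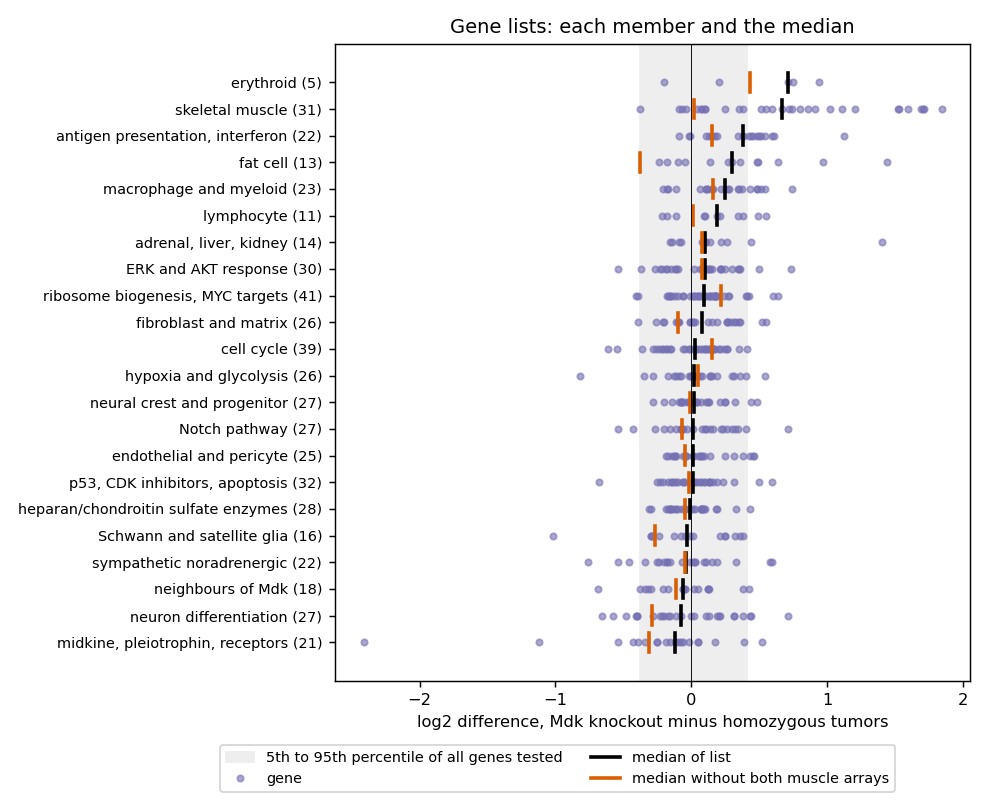
Log2 difference, knockout minus homozygous tumors, of each gene tested (points) in 22 gene lists, with the list median (black) and the median without both arrays that carry muscle transcripts (orange); the grey band spans the 5th to 95th percentile of all genes. The muscle median lies at 0.67 and at 0.02 without those arrays, the antigen presentation and interferon median at 0.38 and 0.15, and the midkine list median at -0.12 and -0.31.

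Genes beside Mdk on chromosome 2 were examined because a targeted allele brings its flanking DNA with it. Of the 10 named genes on each side, 18 of 20 were tested and 0 were called. The median log2 difference was -0.06, with 1 gene higher and 2 lower without overlap, beside 8.1% and 8.4% of all genes. Chst1, a sulfotransferase, read 57.1 and 69 in the knockout tumors and between 39.3 and 45.1 in the homozygous tumors (0.42). Arhgap1 and Ambra1 were at -0.30 and -0.17. The nearest gene tested on the other side from Ambra1 was Dgkz, a diacylglycerol kinase, with 999 and 707 in the knockout tumors and 482, 785, 589 and 754 in the homozygous tumors.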

How the data were processed

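Each of 20 RNA samples was hybridised to 1 Affymetrix 430 2.0 mouse array after 2 cycles of amplification from 40 ng, per the labels' protocols. The deposited values are intensities of probe sets on a linear scale, and every array had a trimmed mean (2% off both ends) of 100, so the authors had scaled the arrays. The summarizing software and its version are not stated by the labels used here.

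Values were taken as log2(intensity + 16) with no further normalization; a fold on this scale understates the change of dim genes. Of 45101 probe sets, 64 controls were left out. The platform annotation gave 1 gene symbol for 34945, several for 932 and none for 9160; symbols were updated by gene ID (34741) or kept (204). The probe set with the highest mean stood for each of 18193 genes, and 15139 were tested, those above the 40th percentile of their array on at least 2 arrays. All 20 arrays were fitted with 7 group means (lmFit and eBayes of limma 3.58.1 in R 4.3.3; residual degrees of freedom, 13), two-sided, with Benjamini-Hochberg adjustment over all genes tested. On simulated arrays with 15139 genes, 100 genes were given a change of 1 log2 unit and 100 a change of 2. The fit found 50% and 93% of them, while 7.14% of its 154 calls were false. In the data 1 gene was called, which makes the adjusted threshold stricter, so these shares overstate what could be found here. No pair of arrays shared more than 0.0022% of its intensities.

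Gene lists, members and tests were chosen with earlier results of these data known. Named genes are those that passed, the 12 highest and 12 lowest by matched differences, the 5 with the smallest p, the 3 with the smallest p in each list, the midkine list, 10 neighbours of Mdk on each side, and Mycn, Hes1, Acta1 and Xist. Ifit1, Oas1a, H2-K1, H2-Eb1, Cd74, Tap1, Psmb8 and Psmb10 were added after their values were seen. Lineage, immune and muscle markers and the genes given only as intensities are members of the lists. Clone names, sex-linked genes and olfactory receptors were left out of the 12 highest and lowest. Numbers in the titles do not establish pairs: knockout tumor 2 minus 1 correlated at 0.07 with homozygous tumor 2 minus 1 across genes. Promoters are from RefSeq, and the motif was searched on both strands. Alternatives covered normalization, pseudocount, filter, probe sets, arrays in the fit, array weights, the variance prior, muscle level, sex, the controls used and a replicate block. The number of arrays limits the precision.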

Additional observations from a re-analysis of the deposited data

Results flagged for a closer look

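In the 4 homozygous tumors, 7 of the 88 genes looked at had 1 sample far from the other 3, with a gap to its neighbour, as a share of the whole range, above Dixon's 95% critical value for 4 samples. Chance flags about 1 in 20 groups. Mdk stood out through homozygous tumor 1 (0.906 of the range), at 297 against 268, 269 and 271, a spread far below the distance to the knockout tumors at 42.6 and 35.5. Rtp4 stood out through the low value of 11.4 in homozygous tumor 1 (0.830), where the others read 30.4, 28.7 and 33.4. Cspg5 was also low there, at 4.9 beside 14, 14.4 and 15 (0.911). Homozygous tumor 3 was low in Sdc1, at 107 beside 177, 190 and 179 (0.874), and in Mcm4, at 802 beside 993, 990 and 964 (0.862), and high in Slc18a2, at 1162 beside 632, 568 and 613 (0.853). Homozygous tumor 2 was high in Higd1a, at 1420 beside 1104, 1114 and 1148 (0.847), while the knockout tumors read 1451 and 1510.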

How the results depend on the processing

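Of 30 alternatives, 20 gave the same count of 1 changed gene. The count was 3 with only the 6 arrays (Ccdc180, Mdk and Snhg14), 3 with the muscle level as a covariate on the 6 arrays (Depp1, Mdk and Snhg14) and 2 with array weights (Ccdc180 and Mdk). Leaving out 1 array at a time gave 0 to 2, with 0 without either knockout tumor (150 and 208 genes at an unadjusted p under 0.05, limma) and 2 without homozygous tumor 2 (Gldc and Mdk). It was 0 without both arrays with muscle transcripts (261 at an unadjusted p under 0.05) and for knockout tumor 2 against homozygous tumor 2 (80). With only knockout tumor 1 and homozygous tumors 1, 3 and 4, a setting chosen after seeing the data, it was 0 (1552). Leaving out every array with Acta1 over 100 gave 1, which was Nrip2 and not Mdk. The replicate block gave 1 gene with all arrays and 6 on tumors 1 and 2 alone (3 higher and 3 lower: Car3, Ccdc180, Mdk, Myh1, Rtp4 and Snhg14), of which Myh1 is in the skeletal muscle list.

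Mdk kept its direction in all 29 alternatives, between -2.80 and -1.72, and passed in 23. It did not pass when 1 knockout tumor was left out (-2.51 to -2.32 over the arrays left out in turn), without both arrays with muscle transcripts (-2.33, limma adjusted p = 0.24), for knockout tumor 2 against homozygous tumor 2 (-2.47, 1), without arrays with Acta1 over 100 (-2.33, 0.1) or with only knockout tumor 1 and homozygous tumors 1, 3 and 4 (-2.33, 0.097). These settings use 1 knockout array. With the replicate block Mdk was at -2.42 (limma adjusted p = 0.029) on all arrays and at -2.44 (0.002) on tumors 1 and 2.

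Followed under the alternatives were 87 genes other than Mdk, those for which a log2 difference was to be printed; genes given only as intensities were not. Between knockout tumor 2 and homozygous tumor 2, 26 of all 125 genes that the rule names turned their sign. Of the 87, 43 had another probe set above the filter, and in 17 of these at least 1 such probe set had the opposite sign. Of 2426 values of the 87, 2399 kept direction and side, 8 passed newly and 19 reversed, in 11 genes; the cause was not tested. Ptprz1 ranged from -0.34 to 0.18 with 1 array left out in turn, above 0 without homozygous tumor 1 (0.01) and knockout tumor 1, and was at 0.34 between the arrays with muscle and 0.04 with the muscle covariate. Notch2 ranged from -0.26 to 0.01 with 1 array left out, above 0 without homozygous tumor 4, and was at 0.29 and 0.15 with the replicate block on all arrays and on tumors 1 and 2, 0.29 with numbers 1 and 2 against 3 and 4 as a term, 0.15 with homozygous tumors 1 and 2 as controls and 0.14 with the muscle covariate. Alk was at 0.06 with homozygous tumors 3 and 4 as controls, also chosen after seeing the data. Between the arrays with muscle, Lrp6 was at 0.06, Itga4 at 0.11, Sdc1 at -0.18, Rrp9 at -0.14, Phox2a at -0.35, Nefh at -0.02 and Gfra3 at 0.05. Higd1a was at -0.09 as the mean of its probe sets.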
